A study of Caenorhabditis elegans with 4 samples.

Results

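The regions described here are places on the Caenorhabditis elegans genome where the Hox protein LIN-39 gave a high-ranking peak in both replicates of 1 chromatin immunoprecipitation and sequencing (ChIP-seq) experiment. Each is a peak of ChIP replicate 1, numbered 1 to 2000 in its list, that overlaps by at least 1 bp a peak of ChIP replicate 2 numbered 1 to 2000. They were chosen by the measured peak numbers and positions, and 275 of the 30000 replicate 1 peaks met the rule. Of these, 125 overlap a peak of the shorter list deposited for the series as a whole and are called listed sites here. The other 150 overlap none and are called unlisted sites. The remaining 1725 replicate 1 peaks numbered 1 to 2000 have no partner among numbers 1 to 2000 of replicate 2 and are called unshared peaks.

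All 4 libraries came from strain OP18 hermaphrodites at L4, the last larval stage, kept at 20 °C. The animals carry unc-119(ed3) III and the transgene wgIs18, which holds unc-119(+) and lin-39::TY1::EGFP::3xFLAG and was introduced by bombardment, so LIN-39 is followed through a tagged extra copy and the labels list no lin-39 mutation. Antibodies to the GFP tag recovered the bound DNA in the 2 ChIP libraries, while none of the lists belongs to the 2 input libraries. That the replicates are separate cultures is nowhere stated, and chromatin came from whole animals, so a peak does not show in which cells a site was bound.

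Hox proteins are transcription factors with a homeodomain that give cells along the body axis their regional identity. LIN-39 acts in the middle of the worm body, where it is needed in the vulval precursor cells and in neurons of the ventral nerve cord. Hox proteins often bind DNA together with partner homeodomain proteins, in worms the Pbx relative CEH-20. In ChIP-seq, DNA crosslinked to the tagged protein is recovered, and a peak is a stretch that a peak caller picked out as rich in such DNA.

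A peak number is read here as a rank within a list, 1 being the highest. Neither the files nor the labels state that this is the peak caller's own order. The score deposited by the authors is also used. Its values behave as minus log10 of an estimated false discovery rate, so that a score above 0 means fewer background calls than peaks at that number and a score below 0 means more. Under that reading, replicate 1 had 88 background calls at number 100, 217 at 200, 553 at 500 and 2287 at 2000, and replicate 2 had 38 at 100, 125 at 200, 509 at 500 and 2259 at 2000. Background calls therefore outnumbered peaks at each of these numbers from 200 on in replicate 1 and from 500 on in replicate 2, so most of the range that chose the sites lies where the score gives no excess over background. Peaks are positions in the genome, not biological replicates, so each p-value below describes these lists only. Overlapping peaks of 1 list can count a site more than once: the 125 listed peaks fall into 113 sites when neighbours within 1 kb are joined, and the 150 unlisted peaks into 145. Sequencing depth is unknown for every library.

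The sites that stood highest in both replicates were all in the series-level list. Shared peaks numbered 13.8% of replicate 1 peaks 1 to 2000, while 6.6% of those 2000 peaks, and 0.633% of all 30000, overlapped a series-level peak. With the limit set at 200 in both lists, 48 peaks were shared and all 48 were listed. At a limit of 500 there were 92 shared peaks, 85 of them listed. At 1000 there were 145, with 110 listed. At 2000 the listed sites were 45.5% of the 275, and at 5000 they were 15.9% of 947. The numbers of the replicates chose the sites, and the series-level list was itself made from peak ranks, so these shares are a description and no test is drawn from them.

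Position X 11093894 to 11094389 led the sites, ranked 2 in replicate 1 and 1 in replicate 2. X 9465562 to 9466057 was number 5 in both, with centres 5 bp apart. X 13700532 to 13701027 ranked 1 in replicate 1 and 8 in replicate 2, with centres 2 bp apart. All 3 had the highest score of their lists, 1.28 in replicate 1 and 1.84 in replicate 2. These top scores were tied, held by 10 peaks in replicate 1 and 35 in replicate 2. X 16681776 to 16682271 (number 4 in replicate 1 and 6 in replicate 2) and X 16056226 to 16056721 (6 and 12) followed. These 5 sites on X thus stood at 12 or above in both lists.

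Each autosome also had a site near the top of both lists. On I it was 4171936 to 4172431, with number 8 in replicate 1 and 7 in replicate 2. On V it was 4507960 to 4508455, with number 10 in replicate 1 and 11 in replicate 2. On III it was 3867232 to 3867727, with number 16 in replicate 1, number 10 in replicate 2 and centres 76 bp apart. On II it was 10563283 to 10563778 (number 17 in replicate 1 and 3 in replicate 2), and on IV 4749840 to 4750335 (18 and 15). X 2996729 to 2997224 (14 and 2) and X 14525621 to 14526116 (15 and 4) completed the 10 sites with the lowest larger number together with those named above on X, I, V and III. The larger number means the worse rank of the pair.

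**Figure D1:**
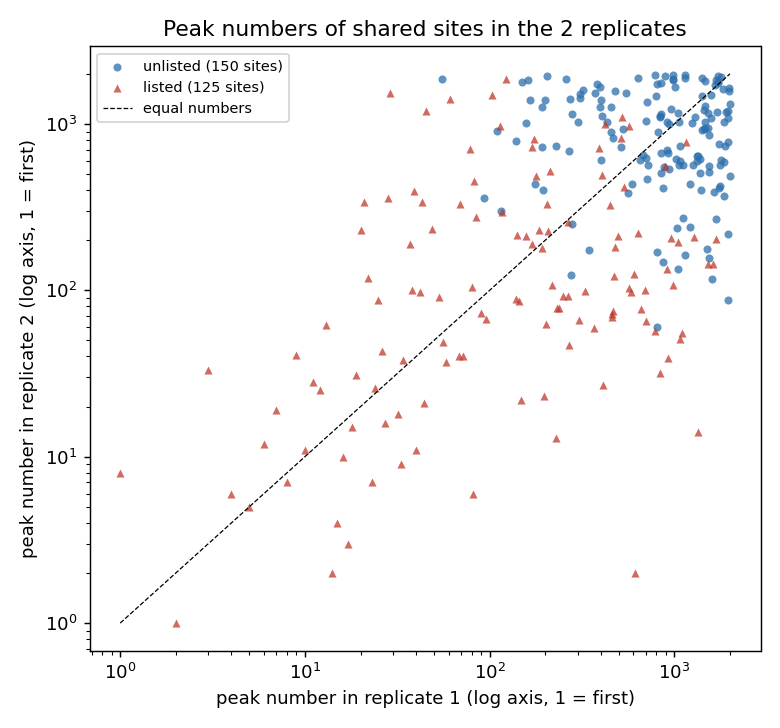
Peak number of each of the 275 shared sites in replicate 1 (x axis) and replicate 2 (y axis), both on log axes, with listed sites as triangles and unlisted sites as circles. Listed sites fill the range below 50 in either list, and no unlisted site has a larger number below 277.

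Listed sites gave way to unlisted ones gradually. All 63 sites with a larger number below 277 were listed, and 62 further listed sites lay at 277 or beyond, mixed with the unlisted ones. The listed share was 89.5% for larger numbers 201 to 300 (17 of 19), 80% for 301 to 500 (20 of 25), 52% for 501 to 750 (13 of 25), 42.9% for 751 to 1000 (12 of 28), 16.1% for 1001 to 1500 (10 of 62) and 7.35% for 1501 to 2000 (5 of 68; 95% exact Clopper-Pearson interval 2.43 to 16.3, counting error only).

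All 55 sites with a smaller number of 50 or less were listed. Of these, 27 stood at 50 or less in both replicates and 28 in only 1, with a partner elsewhere within the first 2000 of the other. For smaller numbers 51 to 100 the share was 87.9% (29 of 33), above 100 and up to 200 it was 51.2% (22 of 43), and for 301 to 500 it was 15.6% (5 of 32). None of the 22 sites with a smaller number of 1001 to 1500, nor of the 9 at 1501 to 2000, was listed.

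**Figure D2:**
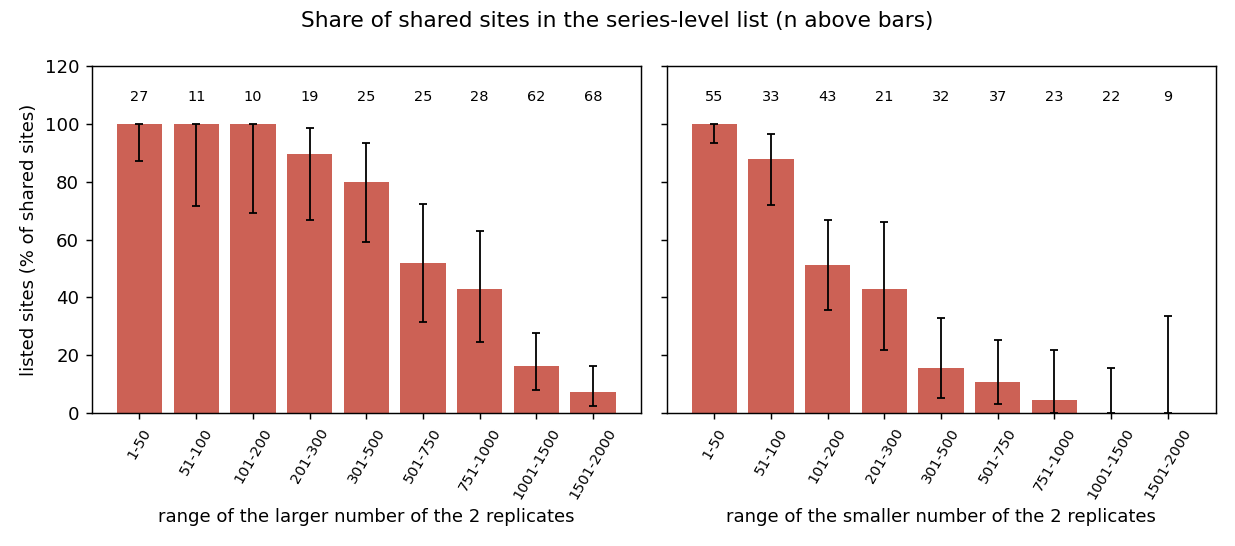
Share of shared sites that are listed (y axis, percent) by range of the larger (left) or smaller (right) of the 2 peak numbers, with 95% exact intervals for counting error and the number of sites above each bar. The share is 100% for larger numbers up to 200 and falls to 7.35% at 1501 to 2000.

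In numbers, listed sites had a median of 148 in replicate 1 (quartiles 34 and 466) and 93 in replicate 2 (33 and 233). Unlisted sites had medians of 983.5 in replicate 1 (467 and 1506.5) and 941 in replicate 2 (560.75 and 1431.75). The full ranges overlapped, from 1 to 1676 in replicate 1 for listed sites and from 55 to 1995 for unlisted ones. Under the reading used here a score belongs to its peak number, so counts by score largely restate the ranks that chose the sites. They are a description only. Of 125 listed sites, 106 scored above 0 in replicate 2 and 58 in replicate 1, against 30 and 4 of 150 unlisted sites. Both scores were above 0 at 52 listed and 2 unlisted sites, and neither was at 13 listed and 118 unlisted sites.

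The pair of numbers differed more than 10-fold at 23 listed and 6 unlisted sites. With both numbers capped at 2000, such a ratio needs a smaller number below 200, which 106 listed and 25 unlisted sites had, so the counts follow from the ranks that chose the sites and are not compared. X 13768437 to 13768932 ranked 29 in replicate 1 (score 0.802) and 1538 in replicate 2 (score -0.0554). Its centres lay 3 bp apart. III 8797331 to 8797826 was number 45 in replicate 1 and 1203 in replicate 2, with centres 6 bp apart, and III 6987895 to 6988390 was number 61 and 1408, with centres 21 bp apart. These 3 listed sites stood far higher in replicate 1, yet the replicates placed them within 21 bp.

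The opposite disagreement was also seen. X 1389360 to 1389855 ranked 1340 in replicate 1 but 14 in replicate 2, and II 9282687 to 9283182 was number 838 and 32. X 2996933 to 2997428 was number 615 in replicate 1 and overlapped number 2 of replicate 2. It is a second peak beside X 2996729 to 2997224, so its low number in replicate 2 belongs to its neighbour too. Of the listed sites, 54 stood higher in replicate 1, 70 in replicate 2 and 1 equally in both. Of the unlisted sites, 70 stood higher in replicate 1 and 80 in replicate 2. These counts are not like for like. Every replicate 1 peak counts, also a second peak beside another, but only the lowest overlapping replicate 2 number is used. They therefore do not show a lean to either replicate.

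The 5 listed sites with the highest larger number show how far down the list a listed site reached. IV 6961782 to 6962277 was number 123 in replicate 1 and 1862 in replicate 2, with centres 4 bp apart. X 3439841 to 3440336 was number 1676 and 204, with centres 5 bp apart. I 9182396 to 9182891 (1611 and 143) and I 9182142 to 9182637 (1520 and 143) share 1 replicate 2 peak, whose centre lies 21 bp from the first and 233 bp from the second. The fifth is the site on X at number 29 and 1538. In every case 1 of the 2 numbers was at or below 204.

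The 141 series-level peaks are represented unevenly. A shared site overlapped 116 of them, 102 by 1 site and 14 by 2. The other 25 had no shared site, 21 because their replicate 1 number was beyond 2000 and 4 because their replicate 2 number was. The centre of the series-level peak lay a median of 23 bp from the replicate 1 centre and 13 bp from that of the replicate 2 peak with the lowest number. It was closer to replicate 2 at 69 of the 125 listed sites and closer to replicate 1 at 55. At the 14 series-level peaks with 2 sites, both replicate 1 peaks count, while replicate 2 enters only by its lowest-numbered peak. The medians and counts are thus not like for like and do not show which replicate the series-level list lies nearer. Across the 125 listed sites, which share the 3 lists, the Spearman correlation of the series-level number was 0.822 with the smaller of the 2 replicate numbers and 0.758 with the larger. The series-level list was made from peak ranks by steps not given in full, so these correlations are a description. How its own peaks were numbered is not stated.

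The 10 unlisted sites with the lowest larger number stood highest of their set by that measure. By the smaller number, other unlisted sites named below came first, and the limit for entry to the series-level list is not known. IV 11082119 to 11082614 ranked 277 in replicate 1 (score -0.0405) and 123 in replicate 2 (score 0.394). Its centres were 398 bp apart, so the peaks overlapped only at their edges. V 7757127 to 7757622 was number 280 and 250, with centres 84 bp apart and scores of -0.0526 and 0.143. IV 10935957 to 10936452 was number 115 and 301, with centres 375 bp apart. These first 3 unlisted sites had a replicate 2 score above 0, and only the last of them had a replicate 1 score above 0 (0.0274).

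I 9721821 to 9722316 was number 347 in replicate 1 and 175 in replicate 2, and lay 3213 bp from the nearest series-level peak. II 5543342 to 5543837 was number 93 and 361, with both scores above 0 (0.106 in replicate 1 and 0.0444 in replicate 2). III 8788483 to 8788978 was number 195 and 400, with centres 293 bp apart. III 12598413 to 12598908 was number 177 and 433, with centres 35 bp apart, the closest pair of the 10. The remaining 3 were V 13695960 to 13696455 (560 and 385), V 13088030 to 13088525 (586 and 436) and III 7870314 to 7870809 (403 and 607). On X the first unlisted site was 9350040 to 9350535, at 191 and 730. Of the 10, 3 were on III, 3 on V and none on X.

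Some unlisted sites stood high in 1 replicate alone. I 638247 to 638742 ranked 55 in replicate 1 (score 0.199) and 1858 in replicate 2, with centres 33 bp apart. X 8935446 to 8935941 was number 149 and 1775, and I 5494236 to 5494731 was number 162 and 1834. In the other direction, III 3953026 to 3953521 ranked 60 in replicate 2 (score 0.531) and 806 in replicate 1. IV 13698999 to 13699494 was number 87 in replicate 2 and 1948 in replicate 1 with centres 442 bp apart, and IV 15272735 to 15273230 was number 117 and 1603. None had a number of 50 or less in either list, the range in which every shared site was listed.

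At the limit itself, the last sites inside were X 12872870 to 12873365 (number 1995 in replicate 1 and 486 in replicate 2), IV 15851085 to 15851580 (1991 and 1311) and II 9927832 to 9928327 (987 and 1980). The first outside were IV 7664157 to 7664652 (2009 and 1287), X 11851972 to 11852467 (2014 and 593) and I 7772432 to 7772927 (2030 and 148). All 6 are unlisted, and the peak of the pair with the larger number scored between -0.06 and -0.052 in each.

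How many high peaks of 1 replicate overlap lower parts of the other list gives a comparison for these counts, not a level set by chance. Unlisted replicate 1 peaks 1 to 2000 overlapped a replicate 2 peak 1 to 2000 in 8.03% of cases (150 of 1868) and a replicate 2 peak 2001 to 4000 in 6.96% (130 of 1868). They overlapped block 4001 to 6000 in 7.49% (140). The count then fell to 109 at 6001 to 8000 and lay between 58 and 76 in the 8 blocks from 14001 to 30000. The 150 unlisted sites are therefore close in number to what the next 2 blocks of replicate 2 gave, and above the 58 to 76 of the last 8 blocks. That count alone does not set them apart from overlaps with blocks 2001 to 4000 and 4001 to 6000. What overlap chance alone would give was not tested.

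For listed peaks the same counts cannot be separated from how the series-level list was made. It was made from peak ranks by steps not given in full, so the counts serve only as a description. Listed replicate 1 peaks overlapped block 1 to 2000 of replicate 2 in 125 cases, and each of the other 14 blocks in 1 to 11 cases. Taken from the other side, replicate 2 peaks 1 to 2000 overlapped replicate 1 peaks 1 to 2000 in 275 cases as well, 123 listed and 152 unlisted. They overlapped replicate 1 blocks 2001 to 4000 and 4001 to 6000 in 132 and 128 unlisted cases. Block 16001 to 18000 of replicate 1 gave 114, above the 78 and 71 of the blocks on either side. The fall down the list was thus not even in that direction.

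**Figure D3:**
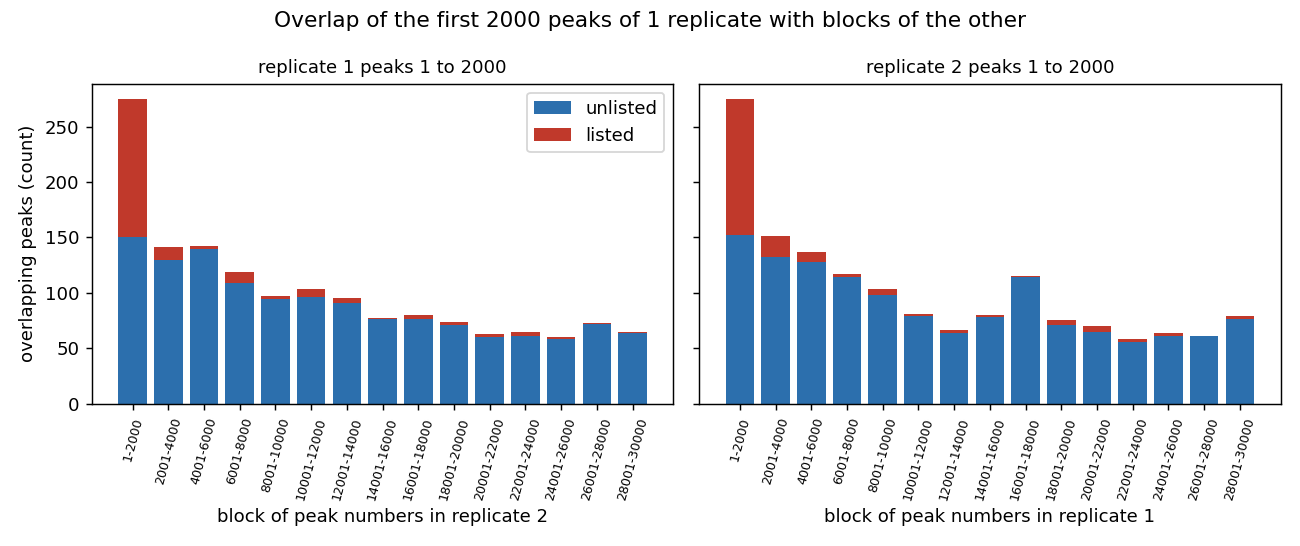
Number of peaks 1 to 2000 of replicate 1 (left) or replicate 2 (right) that overlap a peak in each block of 2000 peak numbers of the other replicate (x axis), with unlisted peaks below and listed peaks stacked above. Listed peaks fall from 125 in the first block on the left to at most 11 in any other, while unlisted peaks go from 150 to 130 and 140.

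The distance between the centres of the replicate peaks had a median of 54 bp at listed sites (quartiles 22 and 109, highest 337) and 93.5 bp at unlisted sites (30.5 and 160.75, highest 473). Centres within 50 bp were seen at 62 of 125 listed sites (49.6%, 40.5 to 58.7) and 52 of 150 unlisted sites (34.7%, 27.1 to 42.9). The odds ratio was 1.85 (95% interval 1.11 to 3.1; two-sided Fisher's exact test, p = 0.0141, adjusted p = 0.0705 over the 5 comparisons that do not concern chromosomes). Listed sites also overlap a common series-level peak derived from the replicates, which ties the positions of the pair, so distance is not independent of the split and this p is no separate support for a difference.

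The comparison was repeated in separate ranges of rank, where distance is tied to the split in the same way. Among sites with a larger number of 501 to 2000, centres lay within 50 bp at 23 of 40 listed sites (57.5%) and 51 of 143 unlisted sites (35.7%), with medians of 44 and 91 bp. Up to number 500 the counts were 39 of 85 and 1 of 7 (odds ratio 5.01, 0.57 to 240), too few unlisted sites to give a direction. The unlisted share of 34.7% fell within the 20.7% to 37.9% that unlisted replicate 1 peaks gave against the other 14 blocks of replicate 2. Centres more than 300 bp apart were seen at 2 listed and 12 unlisted sites. The farthest listed pair was V 15071268 to 15071763 at 337 bp, and the farthest unlisted pair I 4320108 to 4320603 at 473 bp. Overlap with another peak of the same replicate list was seen at 43.2% of listed and 40.7% of unlisted sites (odds ratio 1.11, 0.666 to 1.85; Fisher's exact test, p = 0.713), and at 42.7% of unshared peaks and 29.7% of all replicate 1 peaks.

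**Figure D4:**
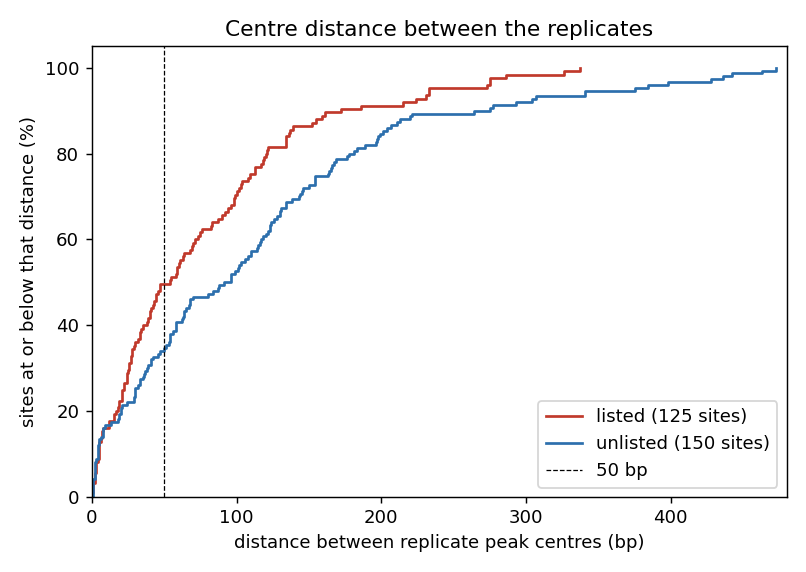
Cumulative share of sites (y axis, percent) at or below each distance between replicate peak centres (x axis, bp) for listed and unlisted sites, with 50 bp marked by a dashed line. At 50 bp the curves stand at 49.6% for listed and 34.7% for unlisted sites.

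Listed and unlisted sites differed in their share on chromosome V. V held 11 of 125 listed sites (8.8%, 4.48 to 15.2) and 31 of 150 unlisted sites (20.7%, 14.5 to 28), an odds ratio of 0.372 (0.161 to 0.804; two-sided Fisher's exact test, p = 0.00697, adjusted p = 0.0418 over 6 chromosomes). The low share of V in the series-level list was known before this comparison was made, so the listed share is not separate evidence. With the limit at 1000 in place of 2000 the shares were 10% and 22.9%, which did not pass (Fisher's exact test, p = 0.0801). The unlisted share lay beside the 21.2% of the unshared peaks (365 of 1725; odds ratio 0.971, 0.621 to 1.48; Fisher's exact test, p = 1).

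No other chromosome passed. X held 35 listed sites (28%, 20.3 to 36.7) and 33 unlisted ones (22%, 15.7 to 29.5), with an odds ratio of 1.38 (0.767 to 2.48; Fisher's exact test, adjusted p = 0.397). III held 24 listed (19.2%) and 20 unlisted sites (13.3%), and I held 25 (20%) and 22 (14.7%), each with the same adjusted p by Fisher's exact test. II held 14 listed sites (11.2%) and 22 unlisted ones (14.7%; Fisher's exact test, adjusted p = 0.569), and IV 16 (12.8%) and 22 (14.7%; adjusted p = 0.727). Between unlisted sites and unshared peaks, each of the 6 chromosomes had an adjusted p of 1, and the intervals of the odds ratios ran from 0.565 on IV at the lowest to 1.88 on II at the highest.

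**Figure D5:**
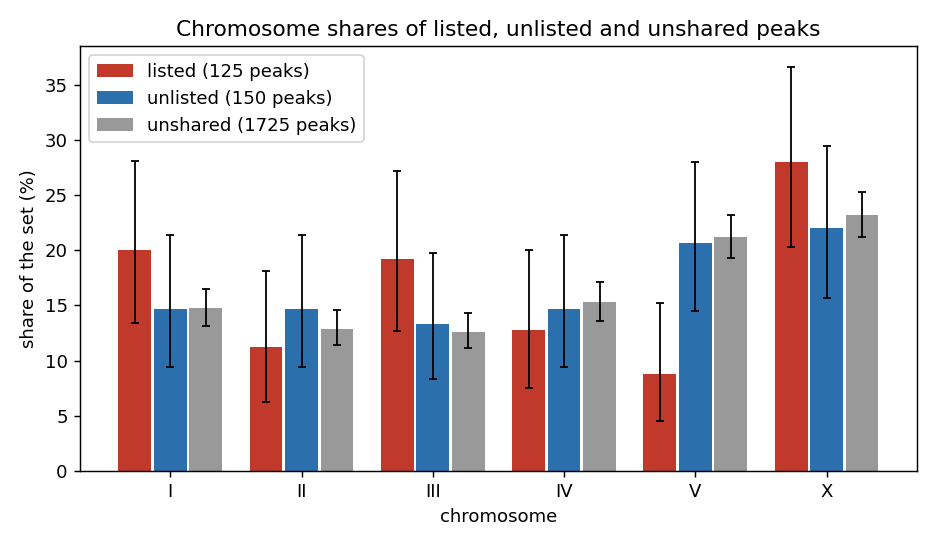
Share of each set (y axis, percent) on each chromosome (x axis) for listed sites, unlisted sites and unshared replicate 1 peaks, with 95% exact intervals for counting error. On V the listed share is 8.8% against 20.7% of unlisted sites and 21.2% of unshared peaks.

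Position along the autosomes was compared next. In C. elegans the centres of the autosomes are rich in conserved genes and recombine little, while the arms hold more repeats. With each chromosome cut into 3 equal parts, 47 of 90 autosomal listed sites (52.2%, 41.4 to 62.9) and 64 of 117 unlisted sites (54.7%, 45.2 to 63.9) lay in the central part (odds ratio 0.906, 0.503 to 1.63; Fisher's exact test, p = 0.779). The unshared peaks gave 45.5% (603 of 1325), which unlisted sites did not differ from past the threshold (odds ratio 1.45, 0.972 to 2.16; Fisher's exact test, p = 0.0658, adjusted p = 0.164 over 5). Over all autosomal peaks the central share was 38% in replicate 1 and 38.3% in replicate 2. Of the arms, the left held 29 listed sites and the right 14, against 29 and 24 unlisted sites. The central share among listed sites ran from 43.8% on IV (7 of 16) to 71.4% on II (10 of 14), and among unlisted sites from 51.6% on V (16 of 31) to 60% on III (12 of 20).

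The distance from unlisted sites to the 141 series-level peaks was also measured. No matching median was taken for other peaks, so the median does not show whether unlisted sites lie unusually far. The nearest series-level centre lay a median of 185560 bp away, and within 10 kb at 10 of the 150 (6.67%, 3.24 to 11.9) against 73 of 1725 unshared peaks (4.23%, 3.33 to 5.29; odds ratio 1.62, 0.727 to 3.24; Fisher's exact test, p = 0.209, adjusted p = 0.349 over 5). Unlisted sites cannot overlap a series-level peak, but 7 unshared peaks do. Without those 7 the unshared share was 3.84%, a difference of 2.82 points (Fisher's exact test, unadjusted p = 0.126). The closest unlisted site was II 9283625 to 9284120, numbers 301 in replicate 1 and 1027 in replicate 2, at 969 bp. IV 17281133 to 17281628 was 2856 bp from one, with its replicate centres 1 bp apart, and V 4499023 to 4499518 lay 8679 bp away. These named neighbours were chosen after their distances were seen.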

How the data were processed

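The 3 deposited peak lists were 1 per ChIP replicate (30000 peaks each, 496 bp wide in replicate 1 and 490 bp in replicate 2) and 1 for the series (141 peaks, 504 bp). Per the file headers and source column, positions are on WormBase WS220 and peaks came from SPP by way of the irreproducible discovery rate procedure. Not given in the sources used here are aligner, versions, thresholds and pooling. The score deposited by the authors has no stated unit, and how it is read comes from its values alone. Positions are 1-based as deposited.

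The number of a site in replicate 2 is the lowest among overlapping peaks numbered 1 to 2000, and the centre distance is to the nearest of these. Chromosome length is the highest peak end in any list. Shares were compared by two-sided Fisher's exact tests (scipy 1.17.1) with conditional odds ratios, 95% intervals and Benjamini-Hochberg adjustment (statsmodels 0.14.6). The overlap and split steps were tested on simulated data. Sites named are, in each set, those with the lowest larger number, over all and by chromosome, the most unequal numbers and the largest centre distance, the listed sites with the highest larger number, and those at the limit. Members, lists and tests were chosen with earlier results of these data known. The gene table at hand is for another build, so no gene or sequence is assigned. Alternatives covered the limit, overlap, ranking, neighbouring peaks, base list and single replicates.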

Additional observations from a re-analysis of the deposited data

How the results depend on the processing

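For 10 results 77 alternatives were run, and 56 left the sign and the call at 0.05 as they were or, for counts, stayed within 1.5 times. The p-values of the alternatives, and the calls made from them, are unadjusted. The comparisons with unshared peaks that leave out the 7 overlapping a series-level peak, the alternatives for V, the blocks of the other list and the chains of sites were chosen after seeing the data. The number of shared sites was 145 at a limit of 1000, 947 at 5000, 168 with centres within 100 bp and 107 when peaks were ranked by deposited score, and listed sites fell to 52 by score. The limits and the stricter overlap change counts by construction; for the score the cause was not tested. Without replicate 1 or without replicate 2, listed peaks numbered 146 and 132. With a replicate left out, all peaks 1 to 2000 of the other one counted. The unlisted peaks there (1854 without replicate 1 and 1868 without replicate 2) are thus mostly not shared sites. The difference in V share (listed minus unlisted, in percentage points) was -12.9 at a limit of 1000, where it no longer passed (Fisher's exact test, p = 0.0801) with fewer sites. The unadjusted p was below 0.05 in the other 7, which include those without a replicate. None of these was adjusted over the 6 chromosomes as the main p was. The difference in close centres was 14.9 points and is not independent of the split. It was below 0.05 only before adjustment (Fisher's exact p = 0.0141, adjusted p = 0.0705). The unadjusted p was above 0.05 at a limit of 1000 (18.7 points, Fisher's exact p = 0.0766). The same held when centres within 100 bp were required (3.84 points, Fisher's exact p = 0.623), which removes the distant pairs by construction. The central-part difference between listed and unlisted sites, -2.48 points, turned to 2.86 at a limit of 5000, 0.794 with centres within 100 bp, 0.427 with a wider central part (0.5 of the chromosome), and 4.35 and 5.3 without replicate 1 or without replicate 2. Overlap within the own list turned to -1.45 with neighbours counted once and was 8.82 without replicate 1 (Fisher's exact p = 0.0437) and 2.25 without replicate 2. The X difference between listed and unlisted sites was 1.79 and 4.96 without replicate 1 or without replicate 2, and the V difference -12.6 and -12.1. Between unlisted and unshared peaks, the X difference turned to 2.22 by score. The central-part difference passed at a limit of 5000 (7.49 points, Fisher's exact p = 6.49e-04), with neighbours counted once (9.83, p = 0.0483) and with the wider central part (9.68, p = 0.0454). The share within 10 kb of a series-level peak differed by 1.62 points at a limit of 5000 (Fisher's exact p = 0.0252) and turned to -0.134 at 1000. Centre distance has no value with 1 replicate left out. The planned count of a Hox-Pbx word was not run, since no genome was at hand. No paired analysis was possible because input has no peak list here. Unknown depth limits every comparison of the replicates.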

Other observations

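Of the 35 listed sites on X, 8 lay in the central part of the chromosome (22.9%), and of the 33 unlisted sites 15 did (45.5%), against 142 of 400 unshared peaks (35.5%) and 36.1% of all replicate 1 peaks on X. Autosomal listed sites lay there in 52.2% of cases. These values were noticed in the data and not tested.

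With neighbours within 1 kb joined in each set, the 258 sites formed 215 stretches when gaps of up to 50 kb were allowed, of which 177 held 1 site, 33 held 2 and 5 held 3. All 5 stretches of 3 sites held listed and unlisted sites side by side. The joined sites were 113 listed and 145 unlisted, so mixed stretches can follow from these numbers alone. How many to expect was not tested. The shortest ran from II 10555554 to 10563778 (8.22 kb) and includes the site with number 17 in replicate 1 and 3 in replicate 2. Another, II 9264730 to 9284120, held 2 listed sites and 1 unlisted site. V 4470846 to 4508455 held 1 listed site, the highest on V, and 2 unlisted ones. The other 2 were X 3419709 to 3455961, with 2 listed sites and 1 unlisted, and X 8935446 to 8995877, with 1 listed and 2 unlisted.

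The Spearman correlation of the 2 replicate numbers was 0.371 over the 125 listed sites and -0.0862 over the 150 unlisted ones. The sites share the 2 libraries and were selected on both numbers, and the listed sites also through a list made from peak ranks. Both values are therefore descriptions.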
